A study of Mus musculus with 20 samples.

Results

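The genes examined here were 9 genes known for their expression in thalamic and habenular neurons (Tcf7l2, Prkcd, Lhx9, Slc17a6, Tnnt1, Synpo2, Ramp3, Zic1 and Rgs16), chosen by name as a gauge of bordering tissue in dissected hippocampus. They were chosen with earlier results of these data known. All 9 were among the 33119 genes counted, and all 9 were among the 21724 genes that passed the filter on low counts. Hippocampal RNA was sequenced from 20 mice aged 16 months, with 5 in each of 4 groups. Numbers S154 to S158 were males with hAPOE3 and S174 to S178 males with hAPOE4. Numbers S144 to S148 were the hAPOE3 group of females, and S164 to S168 were that with hAPOE4. Every group was homozygous for a targeted replacement of mouse Apoe, carried human APOE3 or APOE4 in its place and had a C57BL/6 background, so no wild-type group was included. Per the methods, the tissue was hippocampus freed of cortex, taken from saline-perfused brain whose hindbrain had been removed.

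The thalamus lies beneath the hippocampus and relays sensory and motor signals to the cortex, and the habenula sits on its dorsal edge and connects the forebrain with midbrain monoamine centres. Most of the projection neurons of both are glutamatergic and use the vesicular glutamate transporter VGLUT2, whereas principal neurons of the hippocampus rely mainly on VGLUT1. A set of transcription factors that includes TCF7L2 and LEF1, nuclear partners of β-catenin, marks these neurons in the adult brain.

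The hippocampi of 3 male mice held far more RNA of these genes than the other 17. Mouse S158 (hAPOE3) and mice S176 and S178 (hAPOE4) were the 3 highest of 20 for Tcf7l2, Prkcd, Slc17a6, Tnnt1, Synpo2, Ramp3 and Rgs16, which are 7 of the 9 genes. Because these mice were picked out on the values themselves, the count is a description. Of all 21724 genes tested, 794 (3.65%) had these same 3 mice above the other 17, and 636 (2.93%) had them below. None of the 10 females stood with them. In the deposited normalized counts the same 7 genes had the 3 mice above all others. Reads assigned to mouse Apoe, whose place the human gene takes, ran from 37.4 to 98.9 CPM over the 20 mice, which does not check the human allele. Sequencing depth ran from 35778879 to 52520279 counts per mouse (median 42963466), with 52520279 in S158, 48274653 in S176 and 39195405 in S178, and the share of mitochondrial counts in these mice, 9.82%, 6.82% and 8.19%, lay within the range of 6.47% to 11.3% over all mice. Levels are given as counts scaled to library size (CPM) after TMM normalization, a scale on which a gene is compared between mice and not with another gene. In RNA of a whole tissue, more cells of a type and more RNA per cell cannot be told apart.

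The stretches of 250 bases before the RefSeq start sites of Synpo2, Prkcd and Rgs16 (GRCm38.p6) are shown as examples from the 7 genes that were highest in the same 3 mice. Capitals mark matches on either strand to TAATTA, a core bound by many homeodomain proteins, or to CTTTGA, part of the core bound by TCF and LEF proteins. The reference table held 12 such windows for the 9 genes.
Synpo2 (chr3:123236150-123236399, minus strand): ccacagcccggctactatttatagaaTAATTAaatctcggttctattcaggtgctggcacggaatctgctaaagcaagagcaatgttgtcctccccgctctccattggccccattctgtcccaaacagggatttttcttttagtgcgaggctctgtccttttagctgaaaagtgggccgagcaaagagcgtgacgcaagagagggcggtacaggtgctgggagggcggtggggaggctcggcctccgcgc
Prkcd (chr14:30626209-30626458, minus strand): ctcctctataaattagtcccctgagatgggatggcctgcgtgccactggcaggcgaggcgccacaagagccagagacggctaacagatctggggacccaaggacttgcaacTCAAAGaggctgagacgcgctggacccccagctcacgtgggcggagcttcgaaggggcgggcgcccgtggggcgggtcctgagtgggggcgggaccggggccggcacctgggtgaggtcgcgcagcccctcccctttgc
Rgs16 (chr1:153740103-153740352, plus strand): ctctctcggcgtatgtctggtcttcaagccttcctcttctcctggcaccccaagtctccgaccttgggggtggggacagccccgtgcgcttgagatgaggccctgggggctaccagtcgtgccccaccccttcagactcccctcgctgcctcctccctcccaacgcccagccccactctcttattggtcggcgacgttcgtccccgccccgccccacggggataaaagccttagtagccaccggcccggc
TAATTA occurred in 2 of the 12 windows, 1 of Synpo2 and 1 of Slc17a6, against 4.84% of the 32851 promoter windows of the genome. CTTTGA occurred in 1 of the 12 windows, that of Prkcd shown here, against 13.8% of all windows. The Rgs16 window held neither string of letters, nor did another window of Prkcd that is not shown. A match describes the letters only.

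Tcf7l2 (chr19:55741820-55933654, GRCm38, plus strand) encodes the transcription factor TCF7L2. In hAPOE3 males it stood at 6.21, 6.37, 6.15, 5.81 and 92.3 CPM in S154 to S158, and in hAPOE4 males at 5.78, 6.54, 95.6, 6.36 and 56.8 CPM in S174 to S178. The hAPOE3 females had 7.05, 5.68, 5.05, 15.8 and 6.38 CPM in S144 to S148, and the hAPOE4 females had 7.68, 6.29, 6.21, 6.94 and 5.76 CPM in S164 to S168. The 3 high mice reached 8.92 to 15 times the median of the 20 mice, and hAPOE3 female S147 was the next highest.

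Zic1 (chr9:91358058-91365810, minus strand) and Lhx9 (chr1:138825186-138848577, minus strand) encode a zinc finger and a LIM homeodomain transcription factor. Zic1 reached 73.4 CPM in S158, 106 in S176 and 67.9 in S178, while hAPOE3 female S144 had 79.9, so the other 17 mice, at 12.6 to 79.9 CPM, overlapped them. Lhx9 was high in S176 alone, at 31.9 CPM, against 20.5 in S158, 14.7 in S178 and 10.5 to 22.9 in the other 17. The within-group SD of Lhx9 on the log2 scale was 0.37, against a median of 0.28 over all genes tested. Zic1 overlaps Zic4 on the opposite strand, and reads were assigned to transcripts, so reads from the shared stretch are uncertain between them.

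Slc17a6 (chr7:51622006-51671119, plus strand) encodes VGLUT2. It stood at 94.3 CPM in S158, 158.5 in S176 and 56.5 in S178. The other 17 mice lay between 17.4 and 34.4 CPM. Slc17a7, which encodes VGLUT1, had 631 CPM in S158, 559 in S176 and 1047 in S178, against 845 to 1276 in the other 17, so it was low in S158 and S176 and not in S178.

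Tnnt1 (chr7:4504570-4516382, minus strand) encodes slow skeletal troponin T and had the widest spread of the 9 genes. In hAPOE3 males it stood at 1.5, 1.03, 1.35, 1.28 and 20.03 CPM, and in hAPOE4 males at 0.839, 0.827, 14.04, 1.17 and 41.6 CPM. The hAPOE3 females had 0.727, 0.931, 0.543, 1.00 and 0.966 CPM, and the hAPOE4 females had 1.08, 0.840, 0.967, 1.10 and 0.836 CPM. The highest mouse, S178, was 41.0 times the median of all mice, and the within-group SD of Tnnt1 exceeded that of 99.3% of the genes tested. Of the 17 tested genes within 200 kb of Tnnt1, 0 had the 3 mice above all others, against 3.65% of all genes tested. The other 7 troponin genes listed also had 0. With so few genes, 0 cannot be told apart from that share. Tnnt1 lies 15.2 Mb from Apoe.

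Prkcd (chr14:30595354-30626210, minus strand) encodes protein kinase C delta. It stood at 228 CPM in S158, 137 in S176 and 226 in S178, and between 16.6 and 50.7 CPM in the other 17 mice. Prkch, another kinase of the family, was also highest in these mice, at 15.6, 10.9 and 8.67 CPM against 2.71 to 5.57. Prkca, Prkcb and Prkce, all 3 well expressed in hippocampal neurons, had these mice below the rest: Prkca stood at 136, 187 and 160 CPM against 191 to 385.

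Ramp3 (chr11:6658521-6677475, plus strand) encodes an accessory protein of the calcitonin receptor family, and Rgs16 (chr1:153740349-153745468, plus strand) an inhibitor of G protein signalling. Ramp3 had 43.9 CPM in S158, 19.7 in S176 and 30.7 in S178, and 2.41 to 9.20 in the other 17, the highest of which was hAPOE3 male S157. Rgs16 had 38.3, 33.0 and 45.0 CPM against 5.21 to 10.2. Rgs16 overlaps an antisense gene, Gm28513, and no strand setting of the quantification is given in the sources used here. Synpo2 (chr3:123076519-123236149, minus strand), which encodes an actin-binding protein, had 54.8, 44.8 and 52.3 CPM against 6.64 to 14.7 in the other 17.

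**Figure D1:**
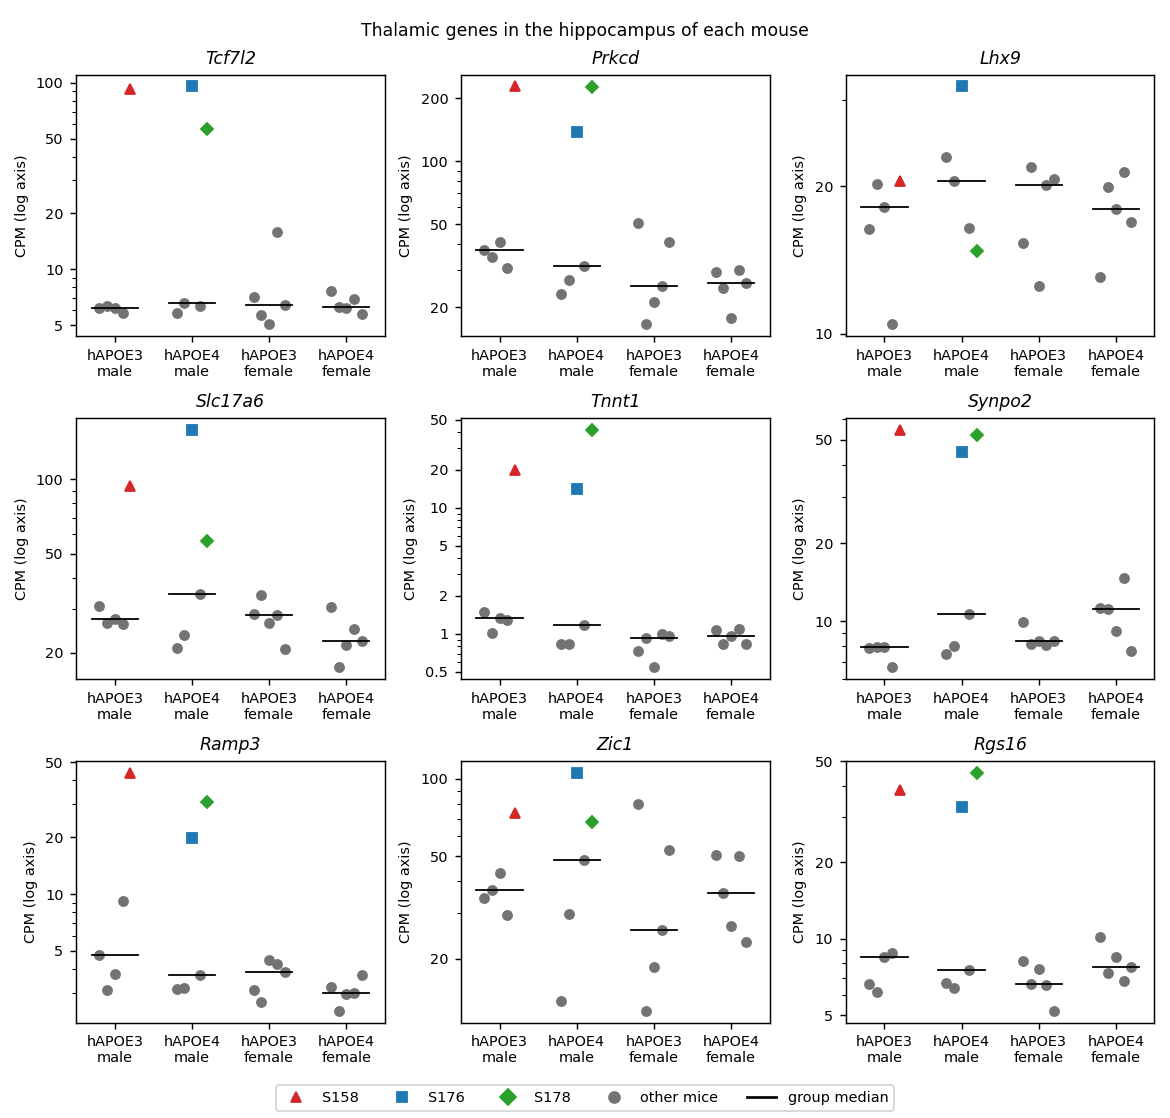
Level of each of the 9 genes in each of 20 mice (points), in CPM on a log axis, by group of 5, with the group median as a line. Mice S158, S176 and S178 lie above all others for 7 genes, while Zic1 and Lhx9 overlap.

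The 3 mice did not share 1 order of genes. Among the 20 mice, Prkcd, Synpo2 and Ramp3 were highest in S158, Tcf7l2, Lhx9, Slc17a6 and Zic1 in S176, and Tnnt1 and Rgs16 in S178. Summed over the 9 genes, S158 had 665 CPM, S176 640 and S178 591, against 105 to 203 in the other 17 mice.

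Other genes of thalamic neurons stood apart in the same mice. This list was also chosen with earlier results of these data known, and the mice were picked on the data. Its count is therefore a description, as are those of the tissue lists below. Of 11 such genes, 10 had S158, S176 and S178 above all other mice, against 3.65% of all genes tested. The exception was Calb2, the calcium-binding protein calretinin. The 4 with the highest mean level were Adarb1, an RNA-editing enzyme, the calcium channel gene Cacna1g, the nuclear receptor gene Rora and the netrin-G gene Ntng1. Adarb1 stood at 294, 334 and 290 CPM against 124 to 199, and Rora at 105, 118 and 93.8 CPM against 34.5 to 66.3. Shox2, a homeobox gene of thalamic neurons, reached 32.0, 27.8 and 23.2 CPM against 0 to 1.98, and the 1.98 CPM was in S147, the mouse next highest for Tcf7l2. Gbx2, a homeobox gene of the developing thalamus, reached 7.02, 6.92 and 3.05 CPM against 0 to 0.151. Lef1, of the same factor family as Tcf7l2, stood at 19.6, 19.4 and 19.3 CPM against 4.80 to 7.73.

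Genes of the habenula separated the 3 mice from each other. All 9 listed genes were highest in S176, where 7 of 9 were at least 2 times the median of all mice, against 3 in S158 and 2 in S178. For 2 of the 9, Pou4f1 and Chrnb3, the 3 mice were above all others, against 3.65% of all genes tested. The gene of the list with the highest level, Nwd2, stood at 64.2 CPM in S176, 17.8 in S158 and 30.6 in S178, against 29.0 to 51.6 in the other 17. Lrrc55, Htr5b and Tac2 followed in level, and Lrrc55 stood at 20.4 CPM in S176, 9.49 in S158 and 5.07 in S178, against 6.51 to 14.2. Gpr151, a receptor of habenular neurons, stood at 12.9 CPM in S176, 1.99 in S158 and 0.804 in S178, against 0.669 to 1.55 in the other 17. Chrnb3, a nicotinic receptor subunit, stood at 11.2, 3.84 and 2.27 CPM in the same order, against 0.769 to 1.5.

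Genes of the striatum marked S158. All 12 listed genes were highest in S158, whose sum of 832 CPM was 6.58 times the median of all mice, against 197 in S176, 220 in S178 and at most 259 in the others. Adora2a, the adenosine receptor of striatal projection neurons, had 32.7 CPM in S158, 3.62 in S176 and 8.16 in S178. Ppp1r1b, the dopamine-regulated phosphatase inhibitor DARPP-32, stood at 246 CPM in S158, 63.2 in S176 and 56.9 in S178, against 27.6 to 78.0 in the other 17. Oligodendrocyte genes summed to 13540 CPM in S158, 9826 in S176 and 6610 in S178, the 3 highest sums. Of the 9 genes, Mbp, Mag and Cnp had these 3 mice above all others, against 3.65% of all genes tested. Of the choroid plexus, smooth muscle and meningeal lists, 0 of 12, 0 of 6 and 0 of 8 genes had the 3 mice above the rest, against 3.65% of all genes tested. These mice were not all low, however. The choroid plexus sum was 2.38 times the median in S158, 2.57 in S176 and 0.68 in S178, and all 12 genes were at least 2 times the median in S176. The meningeal sum was 1.33, 1.64 and 1.57 times the median. On both sums hAPOE4 females S164, S165 and S166 were higher. All 6 smooth muscle genes were highest in S178, whose sum was 2.83 times the median of all mice, with S158 at 2.18 and S176 at 1.31, and hAPOE4 female S166 was second at 2.42.

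The defining genes of hippocampal neurons were present in every library. Their sum over 10 genes was 870 CPM in S158, 966 in S176 and 826 in S178, the 3 lowest of 20, against 1158 or more in the other 17. Of the 10, Dkk3, Neurod6 and Spink8 had the 3 mice below all others, against 2.93% of all genes tested. Neurod6, a transcription factor of pyramidal neurons, stood at 61.6, 65.5 and 66.8 CPM against 113 to 191. Low values were not particular to this list. A list of 7 cortical genes summed to 196 CPM in S158 and 225.6 in S176, ranks 20 and 19 of 20 from the top. In S178 it summed to 258.5 CPM, rank 15. Of these 7 genes, 2 (Tbr1 and Fezf2) had the 3 mice below all others. Whether bordering tissue in the dissection took part in these differences was not tested.

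**Figure D2:**
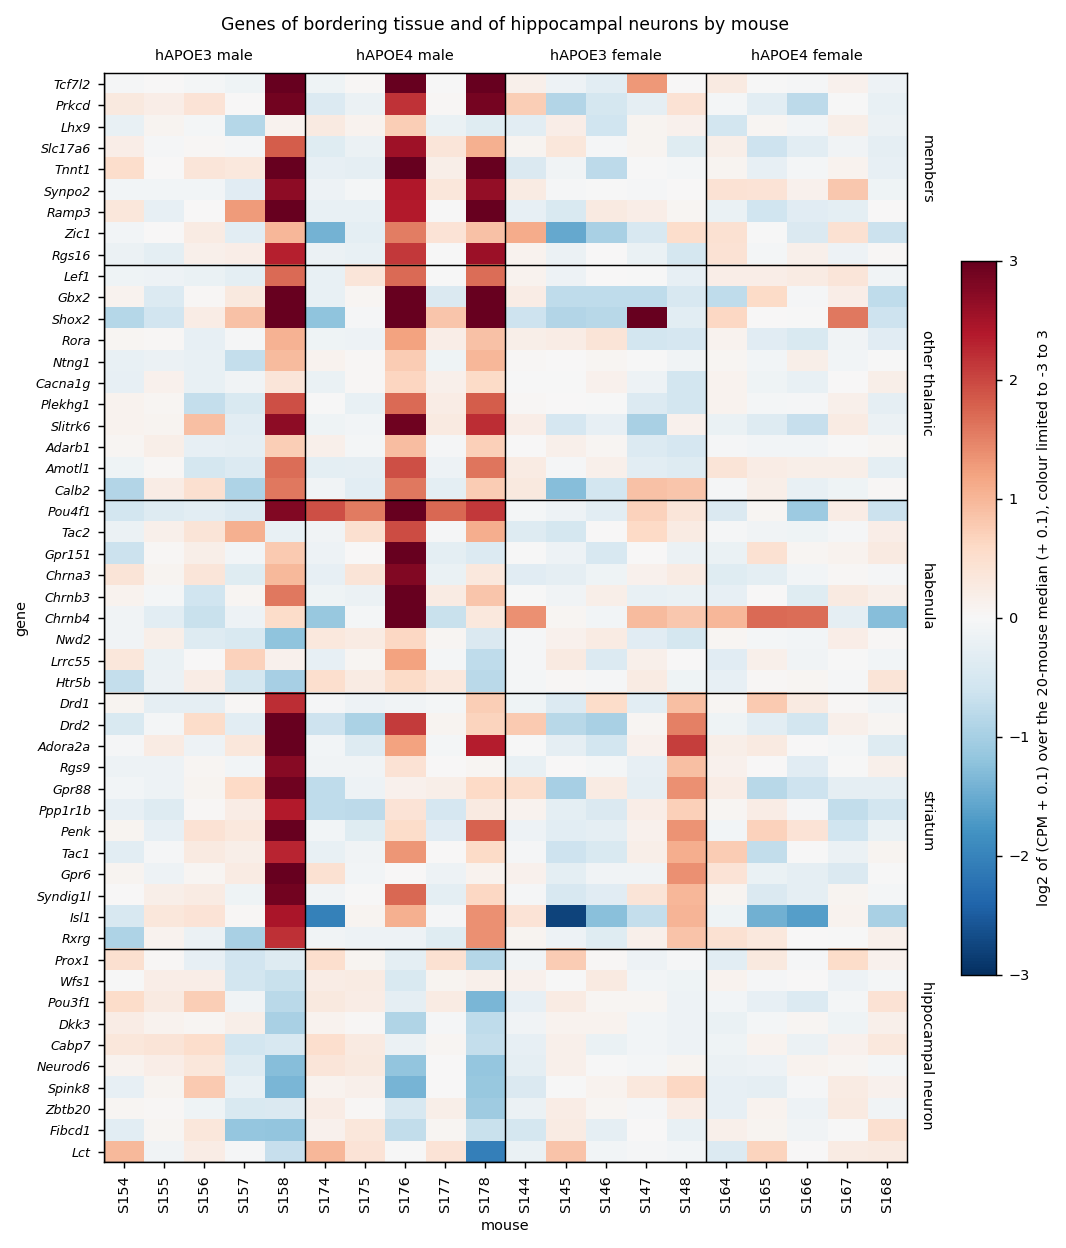
Level of each gene (rows, by list) in each mouse (columns, by group), as log2 of CPM plus 0.1 over the median of the 20 mice plus 0.1, with colour limited to between -3 and 3. The thalamic lists are high in S158, S176 and S178, the habenular list in S176 and the striatal list in S158.

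**Figure D3:**
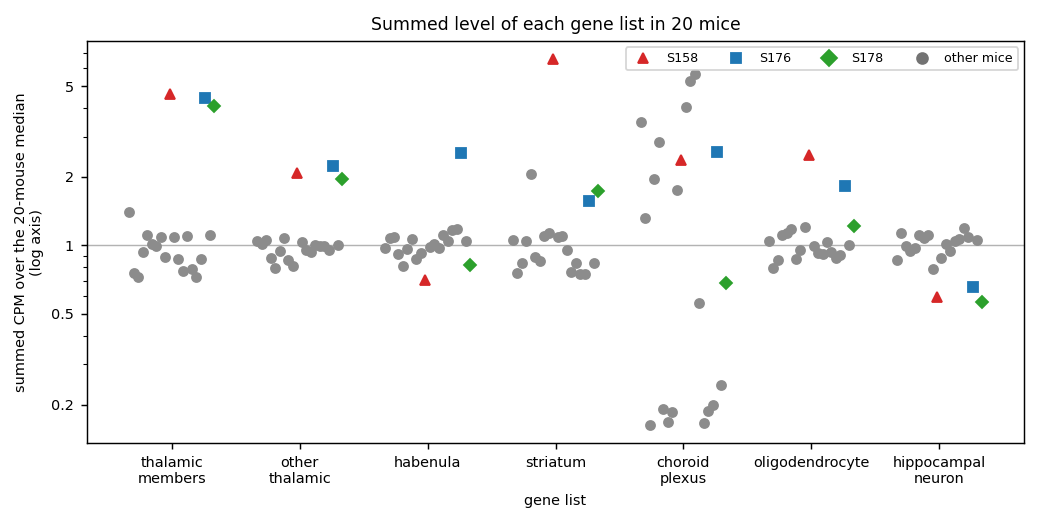
Summed CPM of each gene list in each of 20 mice (points), divided by the median of the 20 mice, on a log axis. S158, S176 and S178 are the 3 highest for both thalamic lists and the 3 lowest for hippocampal neurons, and S158 alone reaches 6.58 for the striatal list.

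Apart from the 9 genes themselves, those most like their mean were Opn3, Patj, Rasa4, Lef1 (also on the thalamic list above), Rab37, Vangl1, Wnt3, Fhdc1, Klk6 and Syt9. Their Pearson correlations with that mean, on deviations from the group means over the 20 mice, ran from 0.951 to 0.971, and 80 of 16087 genes exceeded 0.9. Over the 17 other mice the correlations of these 10 genes ran from -0.158 to 0.622, and 0 genes exceeded 0.9, so the likeness rested on the 3 mice. Among the other 17 mice, the 21 pairs of the 7 genes highest in the 3 mice had correlations from -0.307 to 0.474, with a median of 0.132.

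Some pairs with Zic1 or Lhx9 lay outside this range. Synpo2 and Zic1 had a Pearson correlation of 0.655 (Spearman 0.765), Lhx9 and Rgs16 -0.750 (Spearman -0.676) and Lhx9 and Ramp3 -0.712 (Spearman -0.659). Without the 2 mice farthest from the median of the first gene, Pearson's values were 0.713, -0.736 and -0.476. Prkcd and Zic1 varied together across the 17 other mice, with a Pearson correlation of 0.907 and a Spearman correlation of 0.892, the highest of all 36 pairs of the 9 genes. Without S144 and S145, the 2 mice farthest from the median of Prkcd, Pearson's correlation was 0.818. Of these 17 mice, both genes were highest in S144, at 50.7 and 79.9 CPM, and lowest in S145, at 16.6 and 12.6 CPM. The 2 genes share libraries and normalization. In these 17 mice both also followed the mean log2 CPM of the striatal list, with Pearson correlations of 0.708 for Prkcd and 0.671 for Zic1. This was not particular to the striatal list. The values were 0.599 and 0.621 for the ependymal list and 0.578 and 0.558 for the oligodendrocyte list. The correlations of Prkcd and Zic1 with the list of other thalamic genes were 0.441 and 0.617. Lhx9 had -0.042 with that list and 0.727 with the hippocampal neuron list in these 17 mice. Ramp3 had -0.081 with the other thalamic genes, -0.609 with the hippocampal neuron list and 0.735 with the cortical list.

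**Figure D4:**
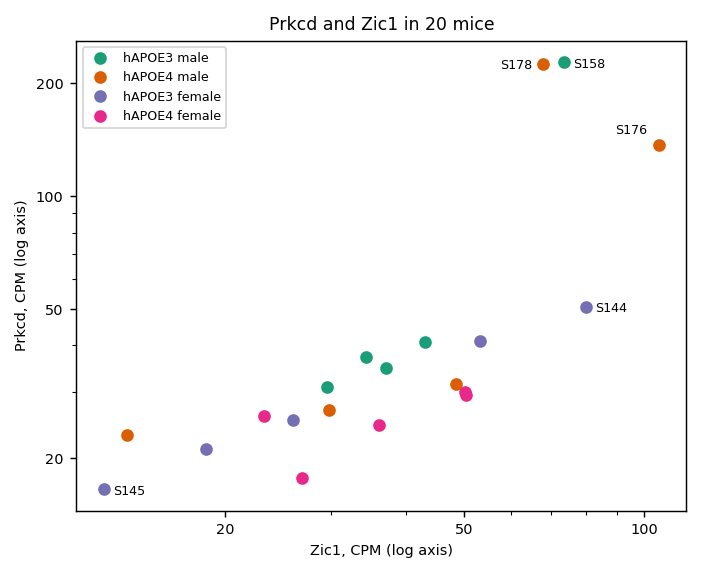
Prkcd against Zic1 in each of 20 mice (points, coloured by group), in CPM on log axes. The 17 other mice rise from S145 to S144, and S158, S176 and S178 have the highest Prkcd.

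The comparison of hAPOE4 with hAPOE3 males asked whether APOE genotype moved these genes in males. edgeR's quasi-likelihood test with Benjamini-Hochberg adjustment called 0 of 9, against 0.621% of all genes tested, and DESeq2 also called 0, against 1.21%. At an unadjusted p under 0.05 edgeR counted 0 of 9, against 9.06%. Tnnt1 stood at 11.7 ± 17.7 CPM (SD, n = 5) in hAPOE4 and 5.04 ± 8.38 in hAPOE3 males, a log2 fold change of 1.20 (SE 0.92). The median log2 fold change of the 9 genes was 0.52, against 0.00 over all genes. The male groups held 2 and 1 of the 3 high mice, and without them 5 of these 9 fold changes turned negative, that of Tnnt1 to -0.46.

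In females, hAPOE4 against hAPOE3 gave 0 of 9 calls by edgeR and by DESeq2, against 0.667% and 1.37% of all genes, and 0 of 9 at an unadjusted p under 0.05, against 10.1%. Log2 fold changes ran from -0.28 for Tcf7l2 (SE 0.83) to 0.33 for Synpo2 (SE 0.58), with a median of -0.03. Synpo2 stood at 10.8 ± 2.64 CPM (SD, n = 5) in hAPOE4 females and 8.61 ± 0.754 in hAPOE3 females, and the groups overlapped.

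Between the sexes, 8 of the 9 log2 fold changes were negative in hAPOE3 mice and all 9 in hAPOE4 mice, but none passed edgeR's threshold. In hAPOE3 mice edgeR called 0 of 9, against 0.0414% of all genes, and DESeq2 called 0, against 0.0856%. At an unadjusted p under 0.05 edgeR counted 2 of 9, Tnnt1 and Ramp3, against 5.22%. Tnnt1 stood at 0.834 ± 0.195 CPM in females and 5.04 ± 8.38 in males (SD, n = 5), with a log2 fold change of -2.60 (SE 1.02, edgeR's Benjamini-Hochberg adjusted p = 0.805). Its groups did not overlap, which held for 0.723% of all genes, and the two-sided exact permutation test gave p = 0.00794, the smallest that 5 against 5 mice allow. That p was not adjusted for the number of genes and comparisons. By the same test the other 8 genes had p of 0.159 or more in hAPOE3 mice. Without S158, males still spanned 1.03 to 1.5 CPM against 0.543 to 1.00 in females. The gap was narrow and at low counts: male S155 had 39 counts (1.03 CPM) and female S147 had 41 (1.00 CPM). Without the 3 mice the log2 fold change of Tnnt1 was -0.63 (SE 0.20, edgeR's Benjamini-Hochberg adjusted p = 0.876).

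In hAPOE4 mice edgeR called 0 of 9 genes lower or higher in females, against 0.437% of all genes, with 6 of 9 at an unadjusted p under 0.05, against 5.8% (Tcf7l2, Prkcd, Slc17a6, Tnnt1, Ramp3 and Rgs16). All 6 were high in the same males, S176 and S178, so they are not independent results. Over the 20 mice, pairs of the 7 genes highest in the 3 mice had a median Pearson correlation of 0.906. Tnnt1 stood at 0.965 ± 0.126 CPM in females and 11.7 ± 17.7 in males (SD, n = 5), with a log2 fold change of -3.60 (SE 1.03, edgeR's Benjamini-Hochberg adjusted p = 0.259). DESeq2 called Tnnt1 alone (log2 fold change -3.58, adjusted p = 0.0221), against 0.916% of the genes it tested. By the two-sided exact permutation test, unadjusted, Tnnt1 had p = 0.262 here, and its groups overlapped. The lowest p of the 9 genes by that test was 0.0873, for Ramp3. Without the 3 mice the log2 fold change of Tnnt1 was 0.05, and 0 of 9 genes were called, against 0.261% of all genes. Tcf7l2 had a log2 fold change of -2.38 (SE 0.86), which turned to 0.10 without the 3 mice.

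Of 56 listed genes of bordering tissue (other thalamic, habenular, choroid plexus, ependymal, striatal and cortical lists), 55 were tested. Of these, edgeR called 1 in this comparison, against 0.437% of all genes, and 0 in each of the other 4 comparisons. It was Pou4f1, which encodes a transcription factor of habenular neurons. It was lower in hAPOE4 females than in hAPOE4 males (log2 fold change -4.63, SE 0.99, edgeR's Benjamini-Hochberg adjusted p = 0.0359). The hAPOE4 males had 1.06, 0.802, 14.5, 0.906 and 1.22 CPM in S174 to S178, and the females had 0.127, 0.216, 0.0430, 0.258 and 0.0956 CPM. The groups did not overlap, as for 0.723% of all genes. Of the hAPOE3 males, S158 had 1.98 CPM and the other 4 had 0.107 to 0.144 CPM, and the hAPOE3 females reached at most 0.392 CPM. Without the 3 mice the call remained (log2 fold change -2.61, SE 0.39, edgeR's Benjamini-Hochberg adjusted p = 0.00388). It was lost without S176 alone (log2 fold change -2.73, adjusted p = 0.207), without each 1 of the 5 hAPOE4 females in turn (adjusted p of 0.0540 to 0.0876), with only the 2 groups compared (adjusted p = 0.140) and with limma on the deposited signal (adjusted p = 0.0841), while DESeq2 gave no p for this gene.

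The interaction of sex and APOE, which tests whether the genotype difference differed between the sexes, called 0 of 9 genes by edgeR and by DESeq2, against 0.184% and 0.382% of all genes. At an unadjusted p under 0.05 it counted 0 of 9, against 2.54%. All 9 estimates were negative, with a median of -0.34, and without the 3 mice 6 of them turned positive, among them Tnnt1 at 0.67.

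**Figure D5:**
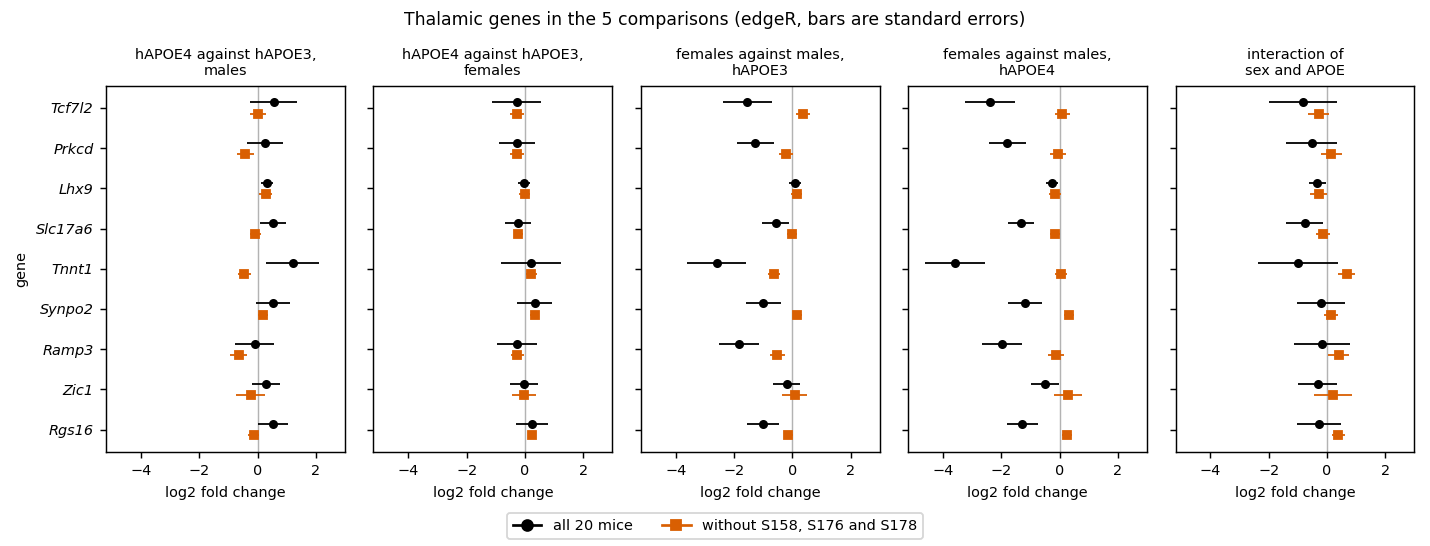
Log2 fold change of each gene (rows) in each comparison (panels) from edgeR, with bars of 1 standard error, for all 20 mice (circles) and without S158, S176 and S178 (squares). Between the sexes the circles reach -3.60, while the squares lie between -0.63 and 0.38.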

How the data were processed

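Hippocampal polyA RNA of 20 mice was sequenced in paired ends. Per the study's methods and the submitters' processing notes, the authors quantified transcripts of the Ensembl mouse annotation by Salmon 0.91 and collapsed them to genes by tximport. The deposited estimated counts are whole numbers and were not normalized. The second deposited table holds a normalized signal made with DESeq2 by the authors and was used for 1 alternative. The test was edgeR's quasi-likelihood test (glmQLFit, glmQLFTest, edgeR 4.0.16, R 4.3.3) with TMM, filterByExpr and a mean for each group (Benjamini-Hochberg over 21724 genes, threshold 0.05). Depth was 35778879 to 52520279 counts per mouse. No 2 of the libraries (190 pairs) agreed within sampling noise. Alternatives were DESeq2 1.42.0, limma 3.58.1, other normalization and filters, an exact permutation test and each mouse left out. Likeness used log2 CPM with a prior count of 2. By rule, all 9 members were named, with the genes of other lists past the threshold, up to 4 of a list by mean CPM (all 4 for thalamic and habenular genes) and the 10 genes of greatest likeness. Other listed genes were named after their values were seen. The members and lists were chosen with earlier results of these data known. Positions are from GENCODE M21 (GRCm38) and promoters from RefSeq. Sequencing batches are not given in the sources used here. The result of 1 gene family is not reported here.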

Additional observations from a re-analysis of the deposited data

Results flagged for a closer look

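In each group of 5 mice, the highest and the lowest mouse were compared with the nearest other by Dixon's criterion. Of 36 groups (9 genes in 4 groups), 10 held a mouse past the criterion. It marks about 1 in 20, or 1.8, where values are normal and the groups independent. Here the values were unlogged CPM, and 7 of the 10 were the same mouse in genes that vary together. The 2 numbers therefore cannot be set against each other as a test. In hAPOE3 males the mouse was S158 in 7 genes: Tcf7l2 (92.3 CPM), Prkcd (228 CPM), Slc17a6 (94.3 CPM), Tnnt1 (20.03 CPM), Synpo2 (54.8 CPM), Ramp3 (43.9 CPM) and Rgs16 (38.3 CPM). In hAPOE4 males it was S176 in Slc17a6, at 158.5 CPM against 21.0 to 56.5 in the other mice of the group. A pair of high mice in a group of 5, as S176 and S178 were for other genes, hides each from this criterion. In hAPOE3 females it was S147 in Tcf7l2, at 15.8 CPM against 5.05 to 7.05, and S144 in Synpo2, at 9.94 CPM against 8.13 to 8.398.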

How the results depend on the processing

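The count of genes past the threshold was 0 of 9 in all 5 comparisons under each alternative run across all genes (the fit of only the 2 groups compared has no interaction), apart from females against males in hAPOE4 mice. There it was 1 (Tnnt1) with DESeq2, and 0 to 1 with 1 mouse left out, the 1 (Tnnt1, adjusted p = 0.0398) without mouse S158. Log2 fold changes kept their sign under RLE normalization, no filter, only the 2 groups compared, no mitochondrial genes and DESeq2. With limma on the deposited signal, signs turned for Ramp3 in males (0.00116), Lhx9 (0.13) and Zic1 (0.53) in females and Zic1 in the interaction (0.33), and on mean log2 CPM for Ramp3 in males (0.00106) and Zic1 in females (0.23). The cause was not tested. Without S158, S176 and S178, a choice made after the data were seen, 19 of 45 log2 fold changes turned sign. Between hAPOE4 and hAPOE3 males they were -0.42 for Prkcd, -0.14 for Rgs16, -0.0853 for Slc17a6, -0.46 for Tnnt1 and -0.24 for Zic1. Between hAPOE3 females and males they were 0.18 for Synpo2, 0.38 for Tcf7l2 and 0.079 for Zic1. Between hAPOE4 females and males they were 0.25 for Rgs16, 0.32 for Synpo2, 0.096 for Tcf7l2, 0.048 for Tnnt1 and 0.30 for Zic1. In the interaction they were 0.15 for Prkcd, 0.40 for Ramp3, 0.39 for Rgs16, 0.15 for Synpo2, 0.67 for Tnnt1 and 0.22 for Zic1. With 1 mouse left out at a time, 39 of 900 turned. Between hAPOE4 and hAPOE3 males the ranges were -0.44 to 1.30 for Prkcd, -0.80 to 1.21 for Ramp3, -0.028 to 1.39 for Rgs16, -0.28 to 1.08 for Slc17a6, -0.32 to 2.48 for Tcf7l2, -0.26 to 3.18 for Tnnt1 and -0.12 to 0.56 for Zic1. Between hAPOE4 and hAPOE3 females the ranges were -0.13 to 0.071 for Lhx9, -0.41 to 0.12 for Tcf7l2 and -0.25 to 0.44 for Zic1. Between hAPOE3 females and males the ranges were -0.053 to 0.19 for Lhx9, -1.18 to 0.18 for Synpo2, -1.96 to 0.38 for Tcf7l2 and -0.66 to 0.079 for Zic1. In the interaction the ranges were -1.58 to 0.17 for Prkcd, -1.48 to 0.53 for Ramp3, -1.15 to 0.27 for Rgs16, -1.33 to 0.038 for Slc17a6, -1.37 to 0.27 for Synpo2, -2.76 to 0.032 for Tcf7l2, -2.98 to 0.46 for Tnnt1 and -0.59 to 0.15 for Zic1. Over all genes, DESeq2 called 322, 339, 25, 250 and 97 genes in the order of the report. With 1 mouse left out edgeR's counts ran from 99 to 288, 74 to 257, 9 to 15, 70 to 275 and 30 to 118. With no filter they reached 221 in males and 189 between the hAPOE4 sexes, with only the 2 groups compared they were 45 and 32 there, and with limma 47 between the hAPOE4 sexes and 16 in the interaction. Calls moved by over 1.5 times without the 3 mice in males (71 against 135), between the hAPOE4 sexes (58 against 95) and in the interaction (10 against 40). No paired analysis was possible because the labels do not match the mice of any group to those of another.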
